A study of Schizosaccharomyces pombe with 9 samples.

Results

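The genes described are 10 genes of iron uptake and iron regulation in fission yeast, of 4915 genes in a table of RNA-seq read counts. They were taken from the table by their systematic identifiers: str1 (SPBC4F6.09), str3 (SPAC1F8.03c), fip1 (SPAC1F7.07c), fio1 (SPAC1F7.08), frp1 (SPBC1683.09c), sib1 (SPAC23G3.02c), sib2 (SPAC23G3.03), pcl1 (SPBC1683.10c), fep1 (SPAC23E2.01) and php4 (SPBC16E9.01c). The set was chosen by the level of str1, which was strongly lower in the clr4oe libraries. For these 10 genes, every difference between the clr4oe libraries and another group is therefore given as a description without a p-value, counts past a threshold included, and tests are given for the K587A substitution. All 10 genes passed the filter on low counts.

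Polyadenylated RNA came from log-phase cultures of Schizosaccharomyces pombe in YEA, a rich medium of yeast extract with adenine. Every strain carries TetR-Mit1, a fusion of the bacterial Tet repressor to Mit1, the chromatin remodeler of the SHREC silencing complex. The clr4oe group adds a modification labelled clr4oe to TetR-Mit1 (2 libraries), where clr4 encodes the H3K9 methyltransferase. The K587A group carries TetR-Mit1-K587A, a substitution in the Mit1 ATPase (3 libraries), and the group named TetR-Mit1 carries the unmodified fusion (3 libraries). The labels do not give the promoter of the fusion or of clr4oe, and each genotype is a single strain number, so strain and genotype cannot be told apart. No group without the fusion and no culture with iron added or removed was analysed here. The labels do not say that replicates were separate cultures, so p-values measure the spread between these libraries, which may be technical.

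Fission yeast takes up iron by several routes. A reductive route uses the cell-surface ferric reductase Frp1, the multicopper ferroxidase Fio1 and the permease Fip1, which works in a complex with Fio1. A siderophore route uses ferrichrome, made by Sib1 and Sib2 and imported by transporters such as Str1, and a haem route uses the surface protein Shu1. Fep1, a GATA-type repressor, holds these uptake genes down when iron is plentiful. Php4 joins the CCAAT-binding complex when iron is scarce and represses genes of iron-using proteins and of iron storage. The php4 gene is itself a target of Fep1.

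Library totals ran from 10367168 to 15920802 counts, and the shallowest library was a K587A one. The 10 most abundant genes held 10.8% to 11.1% of counts in clr4oe, 9.21% to 9.27% in K587A and 7.62% to 7.70% in TetR-Mit1. Levels below are CPM after TMM scaling (reads of a gene per common number of reads). The genotype labels were checked on clr4, at 284 and 273 CPM in clr4oe, 55.5 to 60.4 CPM in K587A and 53.7 to 60.9 CPM in TetR-Mit1, and annotated meu6 overlaps it. Gene mit1 had 344 and 357 CPM in clr4oe, 521 to 549 CPM in K587A and 379 to 393 CPM in TetR-Mit1. Annotated nbr1 overlaps mit1 on the opposite strand. The mit1 counts include any mit1 copy and cannot show the substitution. Any 2 libraries of a genotype differed by more than sampling noise, with a chi-square per degree of freedom of 2.75 to 6.08.

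In clr4oe the transporter genes str1 and str3 and the ferroxidase-permease pair were at least 2-fold lower than in TetR-Mit1, php4 and the ferric reductase were lower by less, sib2 was higher, and sib1, pcl1 and fep1 differed little (log2 fold changes of -0.02 to 0.07). As a description of a contrast that chose the set, 7 of the 10 genes lay past an adjusted p of 0.05 (edgeR quasi-likelihood test), 6 lower and 1 higher. Of all 4887 tested genes, 65.1% passed the same threshold, 33% lower and 32.1% higher. At least 2-fold lower were 4 of the 10, where 3.07% of all tested genes were. The clr4oe and TetR-Mit1 libraries did not overlap in 8 of the 10 genes, and this was so for 74.9% of all tested genes. Because str1 chose the set in this contrast, nothing is read from these counts.

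The choice by the level of str1 in clr4oe did not use K587A against TetR-Mit1. Earlier results of these data were known when the genes were chosen, however, so full independence from that comparison is not assured. In K587A against TetR-Mit1, 9 of the 10 genes passed the threshold, 2 higher and 7 lower. Of all tested genes 52.3% passed, 27.3% higher and 25% lower. The K587A and TetR-Mit1 libraries did not overlap in any of the 10 genes, beside 58.7% of all tested genes. None of the 10 changed by 2-fold or more in K587A, beside 1.8% of all tested genes, and their median log2 fold change was -0.22 where that of all tested genes was 0.0058. Both comparisons share the TetR-Mit1 libraries. In clr4oe against K587A, which holds the same clr4oe libraries, all 10 genes lay past the threshold, 6 lower and 4 higher, and 71.7% of all tested genes passed, 36.4% lower and 35.4% higher; nothing is read from this count either. No other gene of the table overlaps any of the 10, and 8 of them overlap annotated noncoding RNAs on the opposite strand.

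**Figure D1:**
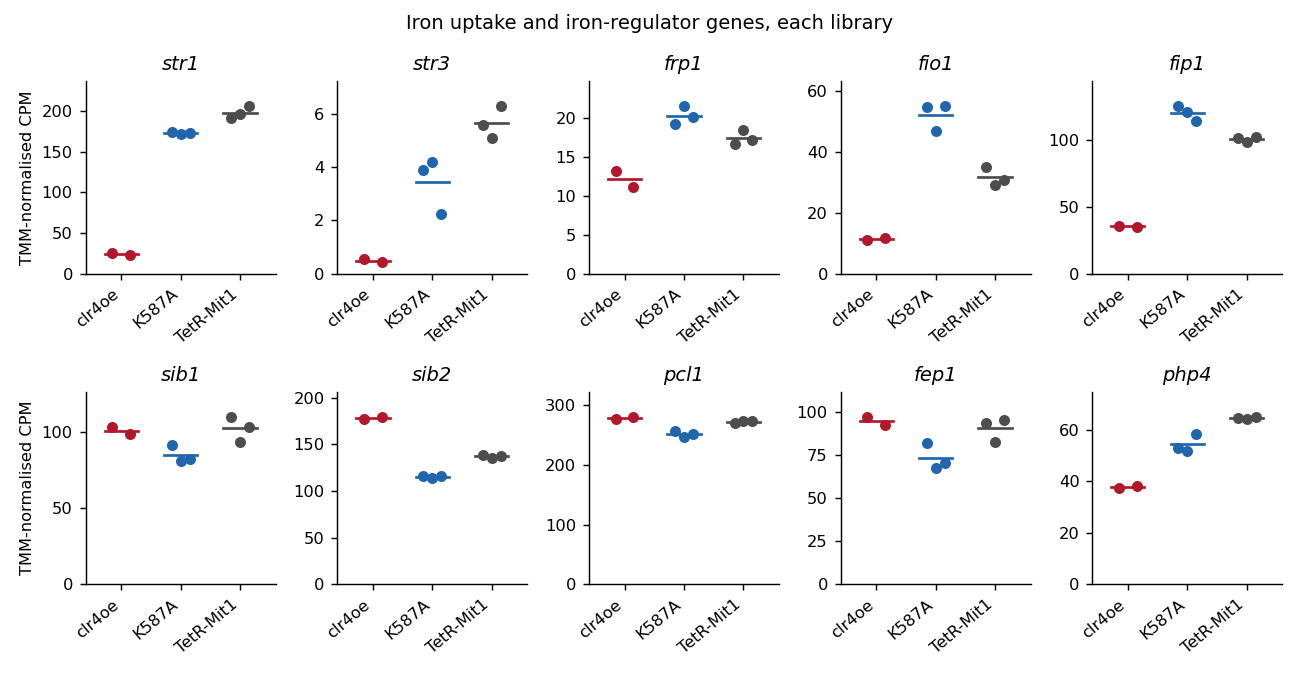
Level of each of the 10 genes in each library, in TMM-normalised CPM on axes that start at 0, with clr4oe left, K587A in the middle and TetR-Mit1 right. Points are libraries and bars are group means, and the clr4oe points of str1 lie at 23.4 and 25.2 CPM while all TetR-Mit1 points lie at 191 CPM or above.

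Str1 imports ferrichrome. Its gene had 25.2 and 23.4 CPM in clr4oe, 174, 172 and 173 CPM in K587A, and 191, 197 and 206 CPM in TetR-Mit1. The clr4oe libraries stood far below all others, and the K587A libraries lay just below the lowest TetR-Mit1 library. The log2 fold change in clr4oe was -3.03 ± 0.06 (SE), or 8.14-fold lower, against TetR-Mit1 and -2.83 ± 0.06 (SE) against K587A. By log2 fold change, str1 ranked 6 from the bottom of 4887 tested genes in both of these comparisons. In K587A against TetR-Mit1 it fell by 0.19 ± 0.04 on the log2 scale (SE, adjusted p from edgeR = 0.000228).

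The product of str3 is a further transporter of the Str family. Its gene was close to the lower limit of the data, with 0.551 and 0.429 CPM in clr4oe (8 and 6 counts), 3.90, 4.20 and 2.24 CPM in K587A, and 5.57, 5.09 and 6.29 CPM in TetR-Mit1. No group overlapped another. Against TetR-Mit1 the log2 fold change in clr4oe was -3.50 ± 0.37 (SE), or 11.3-fold lower. In K587A str3 fell by 0.66 ± 0.21 on the log2 scale (SE, adjusted p from edgeR = 0.0127). That call rested on single libraries: without K587A replicate 3 the log2 fold change was -0.48 (adjusted p from edgeR = 0.073), and without TetR-Mit1 replicate 3 it was -0.58 (adjusted p from edgeR = 0.0598), within a range of 0.011 to 0.073 over 12 alternatives.

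A list of further iron uptake and mobilisation genes held 6, of which 5 were analysed and frp2 was not analysed here. In clr4oe 4 of the 5 were lower than in TetR-Mit1 and none passed as higher, and in K587A 3 were lower and 2 higher. Between clr4oe and K587A 3 were lower in clr4oe. These calls make 80%, 100% and 60% of the list, beside 65.1%, 52.3% and 71.7% of all tested genes. Lower were 33%, 25% and 36.4% of all tested genes. Gene shu1 is among the lower genes in both comparisons with TetR-Mit1. The haem receptor gene shu1 (SPAC1F8.02c) had 0.345 and 0.501 CPM in clr4oe, 0.822, 0.328 and 0.713 CPM in K587A, and 6.54, 8.36 and 7.62 CPM in TetR-Mit1. These are 5 and 7 counts in clr4oe, 12, 5 and 7 counts in K587A, and 94, 115 and 114 counts in TetR-Mit1. Both strains stood far below TetR-Mit1 and overlapped each other. In K587A shu1 fell 12.2-fold (log2 fold change -3.61 ± 0.29 SE). In clr4oe it fell 17.5-fold (log2 fold change -4.13 ± 0.36 SE). Both comparisons share the TetR-Mit1 libraries, and shu1 passed the filter on low counts only through them. A gene this low elsewhere could enter the test only if it differed, so both falls are given as a description without a p-value. Between clr4oe and K587A the log2 fold change was -0.51 ± 0.61 (SE, adjusted p from edgeR = 0.463).

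The other 4 genes of that list moved less. Gene abc3, for a vacuolar ABC transporter linked to stored haem, averaged 60.7 ± 2.37 CPM in clr4oe (SD, n = 2), 70.3 ± 1.55 CPM in K587A and 78.3 ± 0.649 CPM in TetR-Mit1 (SD, n = 3 each). It fell in both strains, by 0.37 ± 0.06 on the log2 scale in clr4oe (SE, adjusted p from edgeR = 5.13e-06) and by 0.15 ± 0.05 in K587A (SE, adjusted p from edgeR = 0.0144). Gene fet4, annotated as a plasma membrane iron and zinc transporter, also fell in both, by 0.22 ± 0.07 in clr4oe and by 0.16 ± 0.06 in K587A on the log2 scale (SE, adjusted p from edgeR = 0.00903 and 0.0367). The siderophore transporter gene str2 moved in opposite directions, with a log2 fold change of -0.27 ± 0.04 in clr4oe and 0.26 ± 0.03 in K587A (SE, adjusted p from edgeR = 1.57e-06 and 6.96e-07). Gene sib3, of ferrichrome synthesis, rose in K587A (log2 fold change 0.40 ± 0.04 SE, adjusted p from edgeR = 2.04e-08) and had a log2 fold change of -0.07 ± 0.05 in clr4oe (SE, adjusted p from edgeR = 0.204). In the annotation str2 overlaps apn1, rpl6 and jmj4 and sib3 overlaps rct1, all on the opposite strand. The strand setting of the counting is not given in the sources used here, so the counts of str2 and sib3 are uncertain.

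For the reductive route, the ferroxidase gene fio1 had 11.1 and 11.8 CPM in clr4oe, 54.8, 46.8 and 55.1 CPM in K587A, and 35.0, 29.3 and 30.8 CPM in TetR-Mit1. Its permease partner fip1 had 35.9 and 35.2 CPM in clr4oe, 126, 121 and 114 CPM in K587A, and 102, 98.5 and 102 CPM in TetR-Mit1. In both genes the clr4oe libraries were the lowest and the K587A libraries the highest, with no overlap between groups. The reductase gene frp1 had 13.2 and 11.2 CPM in clr4oe, 19.2, 21.5 and 20.2 CPM in K587A, and 16.6, 18.4 and 17.2 CPM in TetR-Mit1, in the same order and also without overlap.

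Against TetR-Mit1, the log2 fold changes in clr4oe were -1.47 ± 0.11 for fio1 (2.77-fold lower), -1.50 ± 0.06 for fip1 (2.83-fold lower) and -0.51 ± 0.12 for frp1 (SE). In K587A fio1 rose 1.64-fold (log2 fold change 0.71 ± 0.08 SE, adjusted p from edgeR = 6.26e-08). The rise of fip1 was smaller, with a log2 fold change of 0.26 ± 0.05 (SE, adjusted p from edgeR = 5.86e-05). For frp1 the log2 fold change in K587A was 0.22 ± 0.10 (SE, adjusted p from edgeR = 0.0693), which did not pass the threshold.

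The genes fio1 and fip1 lie next to each other, so their counts were set against each other within each library. The ratio of fio1 to fip1 counts was 0.309 to 0.335 in clr4oe, 0.386 to 0.483 in K587A and 0.297 to 0.344 in TetR-Mit1. The clr4oe ratios lay within the range of TetR-Mit1, and all K587A ratios lay above it. Against K587A the log2 fold changes in clr4oe were -2.18 ± 0.11 for fio1, -1.76 ± 0.06 for fip1 and -0.74 ± 0.12 for frp1 (SE).

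**Figure D2:**
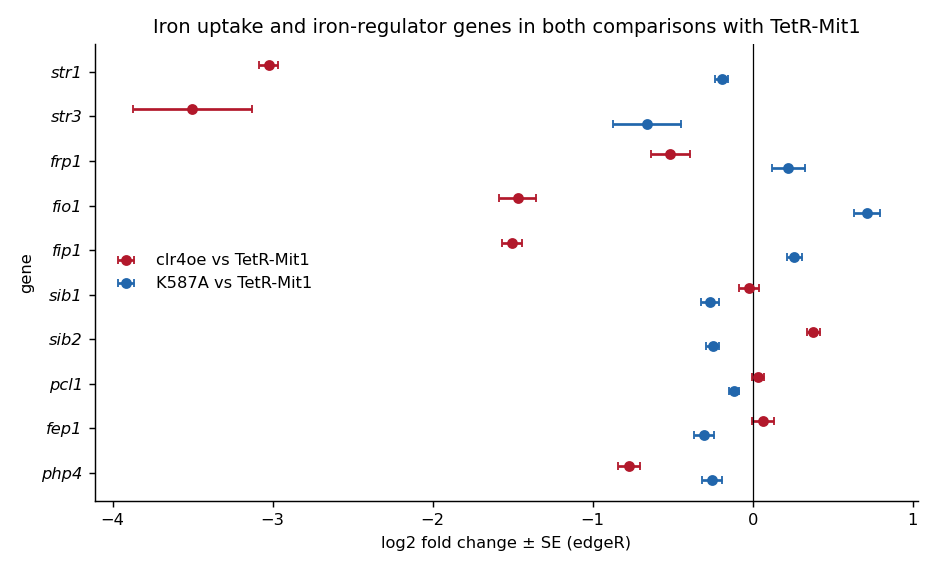
Log2 fold changes of the 10 genes with standard errors from the edgeR fit, clr4oe against TetR-Mit1 in red and K587A against TetR-Mit1 in blue. In red str1, str3, fio1 and fip1 lie between -3.50 and -1.47, and in blue the 10 values lie between -0.66 and 0.71.

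Genes of ferrichrome synthesis did not share the low level of the ferrichrome importer in clr4oe. Gene sib2, for the ornithine hydroxylase of the first step, had 178 and 180 CPM in clr4oe, 116, 114 and 116 CPM in K587A, and 138, 136 and 138 CPM in TetR-Mit1. Here clr4oe was the highest group and K587A the lowest. Gene sib1, for the ferrichrome synthetase, had 103 and 98.8 CPM in clr4oe, 91.7, 81.3 and 82.2 CPM in K587A, and 110, 94.0 and 103 CPM in TetR-Mit1. The clr4oe libraries of sib1 lay within the TetR-Mit1 range, and all K587A libraries lay below it. Both genes fell in K587A, sib1 by 0.27 ± 0.06 and sib2 by 0.25 ± 0.04 on the log2 scale (SE, adjusted p from edgeR = 0.000411 and 8.21e-06). In clr4oe the log2 fold changes against TetR-Mit1 were 0.38 ± 0.04 for sib2 and -0.02 ± 0.06 for sib1 (SE). Against K587A they were 0.63 ± 0.04 for sib2 and 0.25 ± 0.06 for sib1 (SE). The ratio of sib2 to sib1 counts, which are also adjacent genes, was 1.72 to 1.82 in clr4oe, 1.27 to 1.42 in K587A and 1.26 to 1.45 in TetR-Mit1.

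The vacuolar iron importer gene pcl1, which serves storage, had 277 and 281 CPM in clr4oe, 257, 247 and 252 CPM in K587A, and 271, 274 and 274 CPM in TetR-Mit1. In K587A it fell by 0.12 ± 0.03 on the log2 scale (SE, adjusted p from edgeR = 0.00573). In clr4oe its log2 fold change was 0.03 ± 0.04 (SE). That sign was not stable: it was -0.019 with upper-quartile scaling, which moved the median of all genes in this comparison to -0.053. Its neighbour frp1 was lower in clr4oe, so that these adjacent genes did not move together there.

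Of the iron regulators, the repressor gene fep1 had 97.2 and 92.7 CPM in clr4oe, 82.2, 67.5 and 70.3 CPM in K587A, and 93.7, 82.8 and 95.4 CPM in TetR-Mit1. Its clr4oe range overlapped the TetR-Mit1 range (log2 fold change 0.07 ± 0.07 SE). In K587A fep1 fell by 0.30 ± 0.07 on the log2 scale (SE, adjusted p from edgeR = 0.000374). Gene php4 had 37.6 and 38.0 CPM in clr4oe, 52.8, 52.0 and 58.5 CPM in K587A, and 64.6, 64.1 and 65.1 CPM in TetR-Mit1. It was lowest in clr4oe, intermediate in K587A and highest in TetR-Mit1, with no overlap between groups. The log2 fold change of php4 against TetR-Mit1 was -0.77 ± 0.07 (SE) in clr4oe, or 1.71-fold lower. In K587A php4 fell by 0.25 ± 0.06 on the log2 scale (SE, adjusted p from edgeR = 0.000978).

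A list of other iron regulators held 8 genes, of which php3 was not analysed here. In clr4oe against TetR-Mit1 4 of 7 were higher and 1 lower, and in K587A 2 were higher and 1 lower. In clr4oe against K587A 2 were higher and 1 lower. Called were thus 71.4% of the list in clr4oe and 42.9% in K587A against TetR-Mit1, near the 65.1% and 52.3% of all tested genes. In clr4oe against K587A 42.9% of the list was called, below the 71.7% of all tested genes. Gene grx4, for the glutaredoxin that passes the iron signal to Fep1 and Php4, fell in clr4oe by 0.34 ± 0.05 on the log2 scale (SE, adjusted p from edgeR = 5.40e-07), to 147 and 154 CPM, against 184 to 199 CPM in TetR-Mit1. In K587A its log2 fold change was -0.09 ± 0.04 (SE, adjusted p from edgeR = 0.0562). The corepressor genes of Fep1 rose in clr4oe, tup12 with a log2 fold change of 0.28 ± 0.04 and tup11 with 0.23 ± 0.05 (SE, adjusted p from edgeR = 2.87e-06 and 0.000755). In K587A tup11 rose (log2 fold change 0.16 ± 0.05 SE, adjusted p from edgeR = 0.00766), and tup12 had a log2 fold change of -0.07 ± 0.04 (SE, adjusted p from edgeR = 0.155).

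Among the core subunits of the CCAAT-binding complex, php5 rose in clr4oe and in K587A (log2 fold changes 0.18 ± 0.04 and 0.22 ± 0.04 SE, adjusted p from edgeR = 0.000496 and 3.07e-05). Gene php2 rose in clr4oe and fell in K587A (log2 fold changes 0.23 ± 0.05 and -0.17 ± 0.04 SE, adjusted p from edgeR = 9.47e-05 and 0.0017), and annotated tsp0 overlaps it. Neither fra2, for a BolA-like partner of Grx4, nor cuf1, for the copper-sensing regulator, passed the threshold in any of the 3 comparisons. The log2 fold changes of fra2 were -0.09 ± 0.08 in clr4oe and 0.02 ± 0.07 in K587A (SE). Those of cuf1 were -0.09 ± 0.06 in clr4oe and -0.12 ± 0.05 in K587A (SE).

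Genes of iron-using proteins and of iron-sulphur cluster assembly were followed as a list of 24. In clr4oe against TetR-Mit1, 13 of them were higher and 7 lower, with a median log2 fold change of 0.097 against -0.0026 over all tested genes. In K587A against TetR-Mit1, 6 were higher and 14 lower, with a median of -0.10 against 0.0058. In clr4oe against K587A, 17 were higher and 4 lower, with a median of 0.19 against -0.013. The list passed the threshold in 83.3%, 83.3% and 87.5% of its genes in these comparisons, beside 65.1%, 52.3% and 71.7% of all tested genes.

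The largest changes of that list were in genes of different function. Gene isu1, for the scaffold on which iron-sulphur clusters are built, fell to 154 and 141 CPM in clr4oe and to 264, 265 and 261 CPM in K587A, against 345, 371 and 371 CPM in TetR-Mit1. Its log2 fold change was -1.30 ± 0.05 in clr4oe (SE, adjusted p from edgeR = 5.20e-18) and -0.46 ± 0.04 in K587A (SE, adjusted p from edgeR = 2.27e-10). Annotated rna4 overlaps isu1 on the opposite strand. The catalase gene ctt1, for a haem enzyme, had 585 and 566 CPM in clr4oe, 261, 262 and 243 CPM in K587A and 571, 561 and 555 CPM in TetR-Mit1. It fell 2.20-fold in K587A (log2 fold change -1.14 ± 0.04 SE, adjusted p from edgeR = 1.52e-18), and the clr4oe libraries overlapped those of TetR-Mit1.

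The sulphite reductase gene sir1 rose in both strains, with log2 fold changes of 0.70 ± 0.04 in clr4oe and 0.73 ± 0.04 in K587A (SE, adjusted p from edgeR = 3.83e-14 and 3.76e-15). The ferrochelatase gene hem15, which inserts iron into haem, rose in clr4oe (log2 fold change 0.79 ± 0.07 SE, adjusted p from edgeR = 1.03e-09) to 72.6 and 67.6 CPM, against 38.4 to 41.9 CPM in TetR-Mit1. Genes bio2, for biotin synthase, and isa1, for a cluster assembly protein, rose in clr4oe and fell in K587A. Against K587A the log2 fold changes in clr4oe were 0.91 ± 0.04 for bio2 and 0.89 ± 0.05 for isa1 (SE, adjusted p from edgeR = 4.52e-17 and 8.65e-15). All 4 succinate dehydrogenase genes of the list, singled out after their values were seen, rose in clr4oe, sdh1 by the least (1.24-fold) and sdh2 by the most (1.49-fold), with adjusted p from edgeR of 5.73e-12 to 6.67e-08. In K587A they rose between 1.08-fold (sdh2) and 1.16-fold (sdh3), with adjusted p from edgeR of 1.65e-05 to 0.0208. Lower in clr4oe than in TetR-Mit1 were 7 genes of the list: isu1, isa2, cyc1, nfs1, cyt1, glt1 and rip1. Their log2 fold changes ran from -1.30 for isu1 to -0.10 for rip1.

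**Figure D3:**
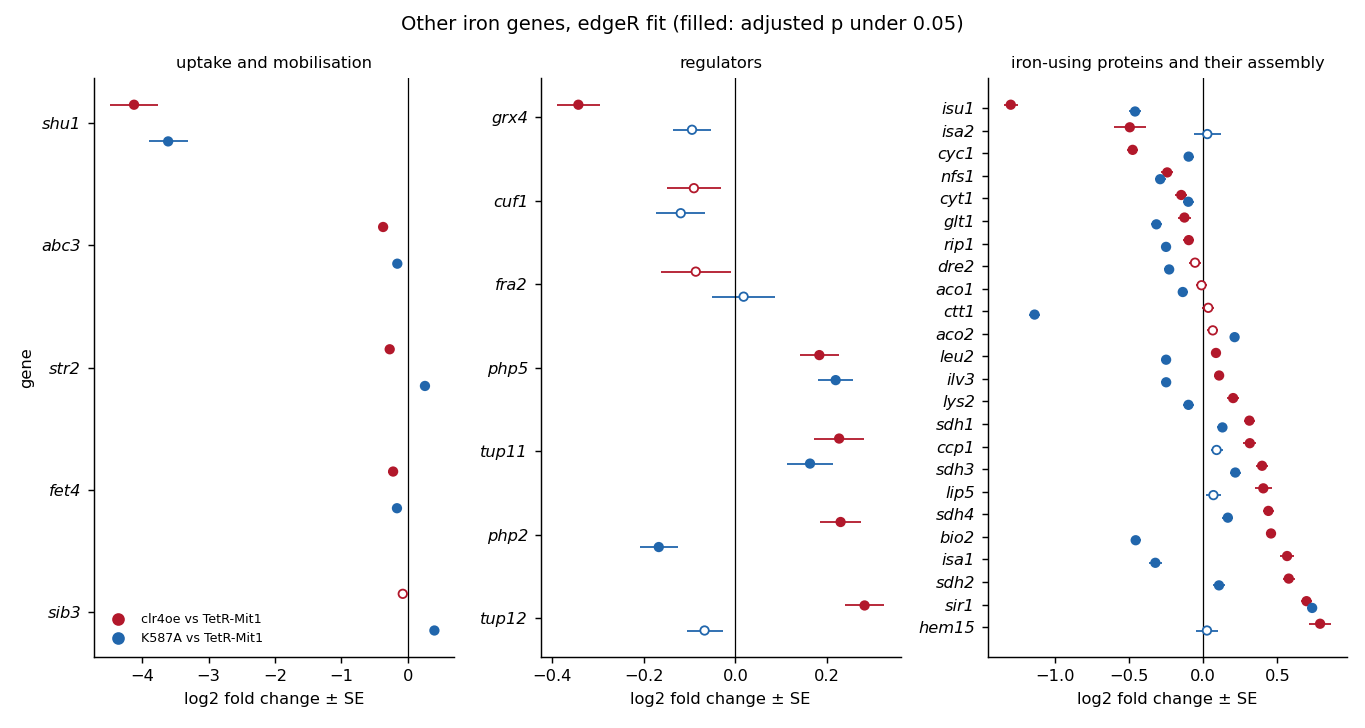
Log2 fold changes with standard errors of iron genes outside the 10, in panels for uptake and mobilisation, regulators, and iron-using proteins, with clr4oe against TetR-Mit1 in red and K587A against TetR-Mit1 in blue. Filled points passed an adjusted p of 0.05 (edgeR), and shu1 lies at -4.13 and -3.61, while all regulators lie between -0.34 and 0.28. For shu1, which passed the filter on low counts only through TetR-Mit1, the filling is a description.

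The genes on both sides were examined next, by their order in the RefSeq annotation of ASM294v3, taking 5 tested genes on each side. The 2 direct neighbours of str1 did not share its low level in clr4oe. Gene mrpl39 had a log2 fold change of -0.06 ± 0.10 (SE, adjusted p from edgeR = 0.626), and vps901 rose by 0.18 ± 0.04 (SE, adjusted p from edgeR = 0.000385). Among all 10 neighbours of str1 in clr4oe, 6 were lower and 3 higher, beside 33% lower and 32.1% higher of all tested genes. The lowest of these neighbours, nop4, was at -1.04.

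Gene str3 lies near the left end of chromosome I, as gene 22 of 2217 in the table, directly next to shu1. In clr4oe 7 of its 10 neighbours were lower and 1 was higher, 4 of them lower by at least 2-fold. The median log2 fold change of the 10 was -0.92. Of all tested genes 33% were lower there, 32.1% higher and 3.07% lower by at least 2-fold. In K587A 6 of the neighbours were lower and 2 higher, 3 of them lower by at least 2-fold, with a median of -0.33. Of all tested genes 25% were lower there and 27.3% higher, and 1.8% changed by at least 2-fold in either direction. Gene shu1 is among the neighbours that were lower by at least 2-fold in both comparisons. On the other side of str3, hhy1 fell by 1.54 ± 0.11 in clr4oe and by 0.32 ± 0.09 in K587A on the log2 scale (SE, adjusted p from edgeR = 1.12e-11 and 0.00398). Among the neighbours of str3 that fell were thus genes outside the iron lists.

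Around the fio1-fip1 pair other genes changed as well. Next to fip1, hsp3105 fell in clr4oe (log2 fold change -0.96 ± 0.18 SE, adjusted p from edgeR = 3.65e-05), and next to fio1, dal2 rose (log2 fold change 0.46 ± 0.07 SE, adjusted p from edgeR = 6.44e-06). Further out, has1 fell in clr4oe about as far as fip1 (log2 fold change -1.47 ± 0.06 SE, adjusted p from edgeR = 4.87e-17). Like fio1, cdc22 was lower in clr4oe and higher in K587A (log2 fold changes -0.81 ± 0.04 and 0.82 ± 0.03 SE, adjusted p from edgeR = 4.27e-15 and 2.81e-16). Next to php4, fmo1 and SPBC16E9.02c had log2 fold changes in clr4oe of -0.13 ± 0.04 and 0.20 ± 0.04 (SE). Within the same window nop8 was at -0.76 ± 0.08 and yar1 at -0.61 ± 0.09 (SE), near the value of php4.

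**Figure D4:**
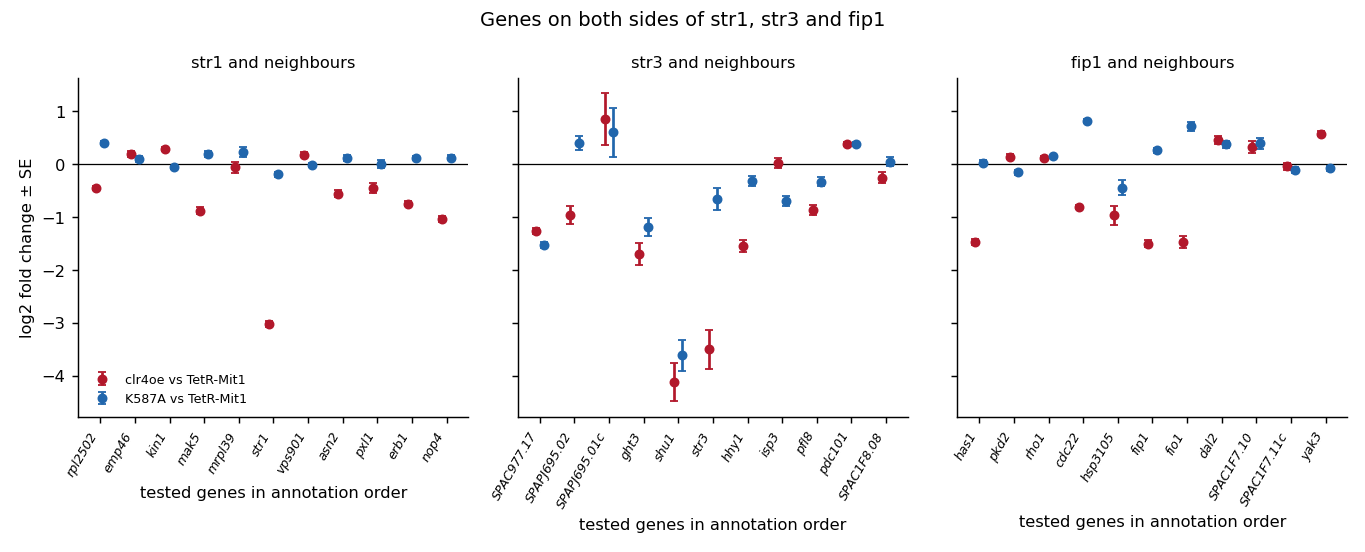
Log2 fold changes with standard errors of str1, str3, fip1 and the tested genes around them in annotation order, clr4oe against TetR-Mit1 in red and K587A against TetR-Mit1 in blue. Gene str1 stands alone at -3.03 among its neighbours, str3 lies next to shu1, and fip1 at -1.50 and fio1 and has1 at -1.47 lie at a like level.

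Likeness of profile was measured as the root mean square difference in log2 CPM over the 8 libraries, each gene centred on its TetR-Mit1 mean. Of the 45 pairs among the 10 genes, sib1 and fep1 were the most alike (0.064), fio1 and fip1 differed by 0.30, and str1 and str3 by 0.45. Among 4809 genes outside the set that averaged at least 5 CPM, the 5 most like str1 were nrg1 (0.24), gdt1 (0.30), rhp7 (0.34), rhp16 (0.46) and SPBCPT2R1.04c (0.49). Their log2 fold changes in clr4oe ran from -2.89 for nrg1 to -2.12 for rhp16, and in K587A from -0.56 for nrg1 to -0.09 for rhp16. None of the 5 was on a list of iron genes used here, but the 10 members were not candidates. Member str3 (0.455) lay nearer to str1 than rhp16 did (0.457). The 5 were picked for matching str1, so their low levels in clr4oe follow from that choice and are a description.

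Cultures can also differ in the state of their cells, so 10 genes of mating, meiosis and starvation were followed. Their summed level was 714 and 719 CPM in clr4oe, 294 to 328 CPM in K587A and 561 to 589 CPM in TetR-Mit1. The higher clr4oe sum came from isp6 alone: the other 9 genes summed to 232 and 243 CPM in clr4oe, 142 to 160 CPM in K587A and 304 to 321 CPM in TetR-Mit1. In clr4oe 2 of 10 were higher and 3 lower than in TetR-Mit1, and in K587A 4 were lower and 0 higher. That is 50% and 40% of the list, beside 65.1% and 52.3% of all tested genes. Gene mei2, for a meiotic regulator, fell in both, with log2 fold changes of -0.96 ± 0.08 in clr4oe and -2.00 ± 0.08 in K587A (SE, adjusted p from edgeR = 3.33e-10 and 2.95e-16). Gene ste11, for the mating transcription factor, also fell in both, to -0.35 ± 0.07 in clr4oe and -1.27 ± 0.07 in K587A on that scale (SE, adjusted p from edgeR = 7.61e-05 and 1.75e-14), as did mei4 (-0.58 and -0.92). The protease gene isp6 rose in clr4oe and fell in K587A (0.88 ± 0.04 and -0.73 ± 0.04 SE, adjusted p from edgeR = 6.71e-15 and 2.77e-13). No gene of the list was at 0 in any library, and the lowest, mfm1, had between 0.815 and 2.21 CPM. Their part in the changes of the iron genes was not tested. In such bulk samples, fewer cells that express a gene and less RNA per cell cannot be told apart.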

How the data were processed

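The deposited values are raw counts per gene, whole numbers with a column per library and no normalization by the authors. The column names carry the suffix of STAR gene counts, per the file headers. STAR, SAMtools, DESeq2 and the build ASM294v2 are named in the submitters' processing notes, without versions or roles. Annotation, strand setting and filters are not given in the sources used here. Columns were matched to samples by the library letter in the labels. Of 9 samples, 8 were fitted, since clr4oe replicate 3 was not analysed here.

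Symbols, gene order and overlaps came from RefSeq's annotation of ASM294v3 (4906 identifiers matched, 9 did not). As that build is not the one named by the submitters, no coordinates, gene lengths or sequences were used.

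Counts were tested with edgeR 4.0.16 in R 4.3.3 (filterByExpr, 4887 genes kept and 28 removed, TMM, glmQLFit and glmQLFTest), all 8 libraries in one fit with genotype as the factor. P-values were adjusted by Benjamini-Hochberg over all tested genes, with a threshold of 0.05. A standard error is the absolute log2 fold change over the square root of F. The fit was run on simulated data with 200 of 4882 genes changed and counts drawn with its own dispersions. In each comparison with TetR-Mit1, 200 of 200 changed genes were recovered and 11 unchanged genes were called. Far fewer genes were changed there than were called here, so scaling under such wide change was not tested. A floor of 3 counts is 0.188 to 0.289 CPM of an unscaled library, for counting error only.

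The members and gene lists were chosen with earlier results of these data known. All 10 members and all uptake and regulator genes were named. Of the other lists, up to 3 genes with the largest change past the threshold in a comparison were named, and genes like str1 by a root mean square difference (prior count 1). Neighbours of the members, the succinate dehydrogenase genes, further iron-using genes lower in clr4oe and ctr4 were named outside that rule. Alternatives were scaling by the upper quartile or by median of ratios, DESeq2 1.42.0 (Wald test), no filter, at least 10 counts in every library, fits to the 2 compared groups, a replicate block, and leaving out each library.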

Additional observations from a re-analysis of the deposited data

How the results depend on the processing

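The number of iron genes past the threshold stayed within 1.5 times under all 7 alternatives of scaling, test, filter, samples and block, and with each of the 8 libraries left out. Most of these genes were called in the main fit, so only a loss of calls could have gone past that limit. Leaving out a library gave 8 to 9 of the 10 genes for K587A over TetR-Mit1, where 2269 to 2350 of all tested genes were called. Leaving out a TetR-Mit1 library gave 7 for clr4oe over TetR-Mit1, where 2984 to 3053 of all tested genes were called. Leaving out a K587A library gave 10 for clr4oe over K587A, where 3368 to 3404 of all tested genes were called. As str1 chose the set by its clr4oe level, nothing is read from the clr4oe counts of the 10 genes. For the 36 other iron genes, where 28, 29 and 27 were called in these comparisons, leaving out a library gave 24 to 28, 26 to 28 and 27. A fit without a clr4oe library leaves that group with 1 library, which is then assumed to vary like the other groups. Requiring 10 or more counts in all libraries removed str3 and shu1, which left 8, 6 and 9 of the members called. With that filter 2538, 3173 and 3481 of all 4857 tested genes were called. Of 129 recomputed K587A log2 fold changes of members, 127 kept their direction and side of the threshold, and the others were those of str3 without K587A replicate 3 and without TetR-Mit1 replicate 3. The edgeR and DESeq2 adjusted p of frp1 in K587A ran from 0.055 to 0.224. For clr4oe, 6 of 119 member log2 fold changes against TetR-Mit1 and 7 of 119 against K587A moved by at least the pooled within-group SD of log2 CPM. The log2 fold change of sib1 in clr4oe against TetR-Mit1 changed sign, with a range of -0.079 to 0.034.

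Upper-quartile scaling lowered the share of higher genes among all calls from 49.3% to 41.2% in clr4oe against TetR-Mit1, and called 15 other iron genes higher and 15 lower there, instead of 17 and 12. Replicate numbers are shared between groups, but the labels do not say what they mark. Deviations of same-numbered K587A and TetR-Mit1 libraries correlated across genes with r of 0.12, -0.064 and 0.12. Those of unlike-numbered libraries of these groups had r of -0.18 to 0.087, so the values of 0.12 were the highest. Same-numbered libraries had r of -0.023 and 0.075 for clr4oe with TetR-Mit1, and of -0.135 and -0.079 for clr4oe with K587A. In these comparisons the highest r, 0.083 and 0.135, belonged to unlike-numbered libraries. The numbers were not taken as pairs, since the labels do not give them as such, and a pairing is not settled by these values. With the replicate block the calls among the members were 9, 7 and 10, the same genes as without it. Of all 4887 tested genes, 2573, 3119 and 3458 were called with the block. Nothing is read from the member counts that hold clr4oe. Depth limits str3 and shu1, whose lowest libraries had 6 and 5 counts.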

Other observations

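Genes of copper, zinc and other metals were followed beside those of iron, and the ferroxidase Fio1 is itself a copper enzyme. Of 11 such genes, 4 were higher and 3 lower in clr4oe against TetR-Mit1, and 4 were higher and 6 lower in K587A, beside 65.1% and 52.3% of all tested genes past the threshold. Gene ctr5, for a subunit of the surface copper importer, fell to 132 and 133 CPM in clr4oe and rose to 232, 220 and 224 CPM in K587A, against 197, 207 and 198 CPM in TetR-Mit1. Its log2 fold changes were -0.60 ± 0.04 in clr4oe and 0.17 ± 0.04 in K587A (SE, adjusted p from edgeR = 7.62e-12 and 0.000503). The partner subunit gene ctr4, named after its values were seen, did likewise (log2 fold changes -0.36 ± 0.04 and 0.23 ± 0.04 SE, adjusted p from edgeR = 8.54e-08 and 1.09e-05). The vacuolar copper transporter gene ctr6 rose in both (log2 fold changes 0.58 ± 0.05 and 0.25 ± 0.05 SE, adjusted p from edgeR = 3.22e-10 and 0.000102).

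The zinc importer gene zrt1 rose in K587A to 251, 220 and 227 CPM, against 142, 131 and 126 CPM in TetR-Mit1 (log2 fold change 0.81 ± 0.05 SE, adjusted p from edgeR = 1.15e-12), and had 144 and 129 CPM in clr4oe. The superoxide dismutase gene sod1 fell in K587A by 0.78 ± 0.04 and in clr4oe by 0.31 ± 0.04 on the log2 scale (SE, adjusted p from edgeR = 1.58e-14 and 1.39e-06). Gene ccs1, for its copper chaperone, fell in K587A by 0.32 ± 0.05 and rose in clr4oe by 0.45 ± 0.05 (SE, adjusted p from edgeR = 1.72e-06 and 1.15e-08). Annotated genes overlap zrt1 and ccs1 on the opposite strand, so their counts are uncertain.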
